A study of Homo sapiens with 12 samples.

Results

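The apolipoproteins and lipid absorption genes described here are APOA1, APOA2, APOA4, APOB, APOC3, APOE, MTTP, FABP1, FABP2 and DGAT2, 10 of the 20046 genes for which the array has a probe with a single gene symbol. They were chosen by name, and each is measured by 1 probe. RNA was measured on 12 Illumina bead arrays in Caco-2 cells, an established human colorectal adenocarcinoma line whose cells take on features of small-intestinal enterocytes. The first SIRT1 siRNA (KD1, n = 2), the second, non-overlapping SIRT1 siRNA (KD2, n = 2) and a low-GC scrambled siRNA (siRNA control, n = 2) were transfected and the cells lysed 72 h later. In the other experiment cells received the SIRT1 expression plasmid pCMV-ENTRY Sirt1 (OE Sirt1, n = 3) or the negative control plasmid pCMV-Neo (OE control, n = 3), with no time of lysis given in the sources used here. All 12 samples are the same line in the same kind of medium and the 2 KD2 arrays are numbered 2 and 3. The series calls its replicates biological.

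Enterocytes rebuild triglyceride from absorbed fatty acids and export it in chylomicrons, large lipoproteins with 1 molecule of apolipoprotein B as their frame. MTTP, the microsomal triglyceride transfer protein, loads lipid onto apolipoprotein B, and smaller exchangeable apolipoproteins (A-I, A-II, A-IV, C-III and E) coat the particle or leave for high-density lipoprotein. FABP1 and FABP2 carry fatty acids through the cytosol, and DGAT2 makes triglyceride from diacylglycerol. SIRT1, the protein the study manipulated, is an NAD-dependent deacetylase.

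Between 15345 and 17981 probes were detected per array, where detected means a detection p under 0.01, and raw median intensity ran from 108.6 to 152.6. Levels below are background-corrected, quantile-normalised log2 intensities, in which 1 unit is a doubling, and levels of different probes cannot be set against each other. SIRT1 averaged 7.34 ± 0.02 with KD1 and 7.52 ± 0.49 with KD2, against 8.73 ± 0.21 in siRNA controls (log2, SD, n = 2 each). These are log2 fold changes of -1.39 (SE 0.23, limma adjusted p = 0.098 over all 19263 probes tested) and -1.21 (SE 0.23, adjusted p = 0.0656), so neither passed the threshold of 0.05. Fitting 1 probe per gene gave an adjusted p of 0.0472 for KD1 and 0.0507 for KD2, and the alternatives in all gave 0.00249 to 0.616 for KD1 and 0.00376 to 0.362 for KD2. With the plasmid the only SIRT1 probe stood at 8.69 ± 0.09 in OE Sirt1 against 8.70 ± 0.24 in OE control (n = 3 each), and whether it lies in the transfected sequence was not tested. Of 16 enterocyte markers 10 to 15 were detected per array, with a summed linear level of 43821 to 48490, and villin (VIL1), E-cadherin (CDH1), CDX2, CDH17, DPP4 and sucrase-isomaltase (SI) were detected on all 12 arrays. LGALS4 was detected on no array, and KRT20, ALPI, ANPEP, SLC5A1 and LCT on 1 to 4 of 12. Of 12 hepatocyte markers 8 were detected on every array, albumin (ALB), transferrin (TF) and SERPINA1 among them, and CYP3A4, CYP2E1, TAT and AMBP on none.

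**Figure D1:**
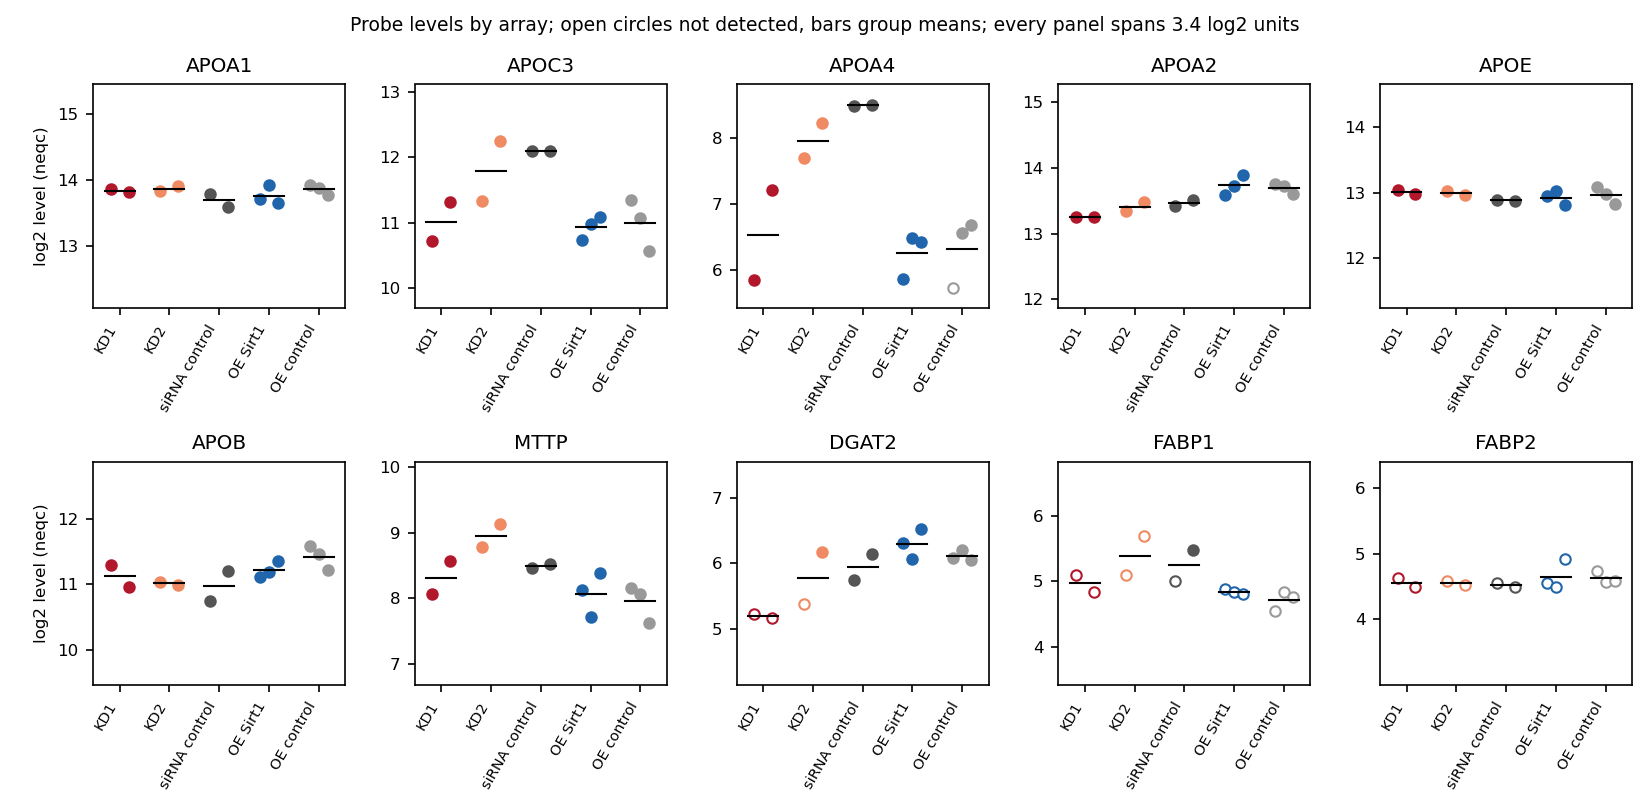
Level of each of the 10 genes on every array (log2 scale, neqc values; filled points detected, open points not detected, bars group means, every panel spanning the same log2 height). The siRNA control arrays stand highest for APOA4, at 8.49 and 8.52, and APOA1, APOA2 and APOE vary little, while FABP2 is detected nowhere.

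APOA4, the satiety-linked apolipoprotein that enterocytes secrete with chylomicrons, was the member that differed most between groups. Its log2 level was 5.84 and 7.21 on the KD1 arrays, 7.70 and 8.23 on the KD2 arrays and 8.49 and 8.52 on the siRNA control arrays. It was 5.85, 6.48 and 6.42 on the OE Sirt1 arrays and 5.73, 6.56 and 6.67 on the OE control arrays, the first of which did not detect it. The scrambled siRNA arrays were thus above all other arrays, and KD1 array 1 was among the plasmid arrays.

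APOA4 was 4.54-fold higher in siRNA controls than in OE controls (log2 fold change +2.18, SE 0.39, 95% interval 1.31 to 3.05, limma adjusted p = 0.029), with no overlap between the groups. It was the only member past the threshold in any of the 5 comparisons, and in this one 2.46% of all tested probes passed (1.89% higher). Leaving out any 1 of the 5 arrays ended the call, with an adjusted p of 0.0657 without the array OE control 1, 0.0642 without 2 and 0.0584 without 3, and of 0.186 without siRNA control 1 and 0.176 without 2, at log2 fold changes of 1.89 to 2.36. Raw APOA4 intensity was 141.4 to 180.5 on the OE control arrays, whose medians over all probes ran from 108.6 to 125.1. On the siRNA control arrays it was 550.1 and 577.2. The size of the difference thus depends on the background correction. It was smaller on the authors' normalised values, and the call was lost without a detection filter, with values given in the closing section. The controls differ in more than the nucleic acid they received, since they belong to different experiments, and these cannot be told apart.

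With KD1, APOA4 stood at 6.53 ± 0.96 against 8.50 ± 0.02 in siRNA controls (SD, n = 2 each). The groups did not overlap, and the log2 fold change was -1.98 (SE 0.43, 95% interval -2.93 to -1.02), the 86th smallest unadjusted p of 19263, but the adjusted p was 0.193. On the authors' normalised values it passed, at -1.13 (adjusted p = 0.00465), as it did with median centring at -2.24 (adjusted p = 0.0032), and over all alternatives the adjusted p ran from 0.0032 to 0.766. Leaving out KD1 array 1 gave -1.30 and leaving out KD1 array 2 gave -2.66, so the size depends on the array. With KD2 APOA4 stood at 7.96 ± 0.37, a log2 fold change of -0.54 against the same siRNA controls (SE 0.43, adjusted p = 0.667). The siRNAs share those 2 control arrays. The direct difference, KD1 minus KD2, was -1.44 (SE 0.43, 95% interval -2.39 to -0.48, adjusted p = 0.252). It passed on the authors' normalised values, at -0.75 (adjusted p = 0.044, within a range of 0.044 to 0.711 over the alternatives), and was -0.76 without KD1 array 1 and -2.12 without KD1 array 2.

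APOC3, which slows the clearance of triglyceride-rich particles, had the next widest spread. Its log2 level was 10.72 and 11.31 with KD1, 11.34 and 12.25 with KD2, and 12.10 on both siRNA control arrays. On the OE Sirt1 arrays it was 10.74, 10.98 and 11.09, and on the OE control arrays 11.35, 11.07 and 10.57. Both KD1 arrays and KD2 array 2 lay below the siRNA controls, and KD2 array 3 lay above them. None of its comparisons passed: its limma log2 fold change came to -1.08 for KD1 (SE 0.32, adjusted p = 0.382), -0.31 for KD2 (SE 0.32, adjusted p = 0.767) and +1.10 in siRNA controls over OE controls (SE 0.29, adjusted p = 0.0748). This last value passed on the authors' normalised values (1.08, adjusted p = 0.0124), with median centring (1.44, adjusted p = 0.00113) and among probes detected on all 12 arrays (adjusted p = 0.04), within a range of 0.00113 to 0.956 over the alternatives.

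APOA1, the main protein of high-density lipoprotein, lies beside APOC3 and APOA4 in a cluster of apolipoprotein genes, and did not vary with them. It was 13.86 and 13.81 with KD1, 13.83 and 13.90 with KD2, and 13.79 and 13.58 in siRNA controls. Its plasmid arrays lay between 13.65 and 13.93. APOA1 differed by +0.15 on the log2 scale for KD1 against siRNA controls (95% interval -0.15 to 0.45) and by -0.17 for siRNA controls over OE controls (95% interval -0.45 to 0.10), a value turning to 0.01 with median centring, where the median of all probes is 0.33. APOA1 is also among the brightest probes, above 99.4% of probes on each array.

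In the order of the RefSeq gene table the cluster runs APOA5, APOA4, APOC3, APOA1. Its nearest tested protein-coding neighbours were ZPR1, BUD13 and CADM1 before it and SIK3, PAFAH1B2 and SIDT2 after it, while APOA5 did not pass the detection filter. With KD1 these 6 neighbours stood between -0.29 (SIDT2) and +0.10 (CADM1) against siRNA controls on the log2 scale, and in siRNA controls over OE controls between -0.10 (PAFAH1B2) and +0.51 (SIDT2, SE 0.12, adjusted p = 0.0563). None passed in any of the 5 comparisons.

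**Figure D2:**
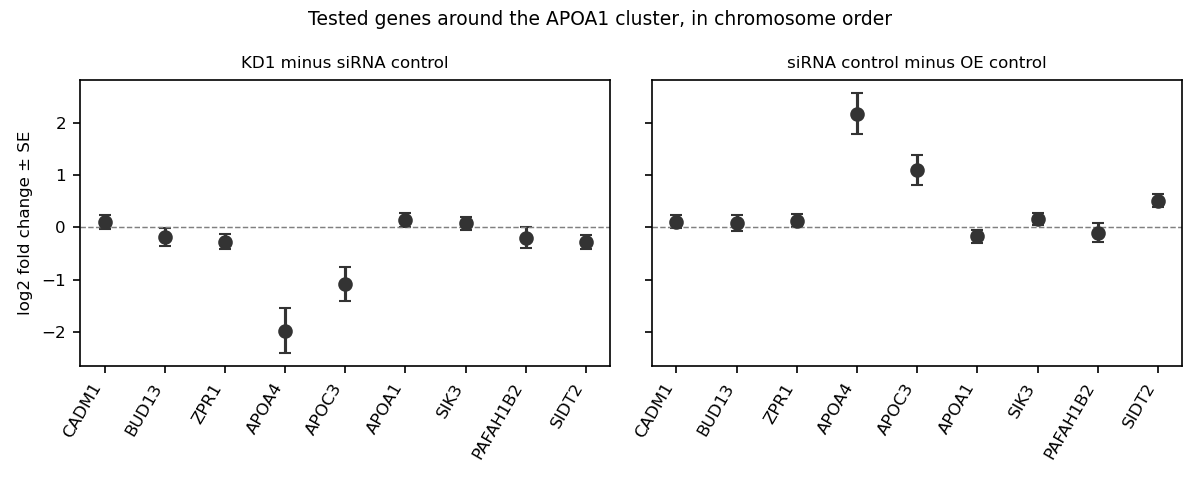
Log2 fold change with its SE for the tested genes around the APOA1 cluster, in chromosome order without distances, KD1 minus siRNA control on the left and siRNA control minus OE control on the right. APOA4 and APOC3 stand at -1.98 and -1.08 on the left and at 2.18 and 1.10 on the right, and APOA1 beside them at 0.15 and -0.17.

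Promoter sequence, from 250 bases before to 50 after the annotated start, was held for 6 of the 10 genes in the RefSeq table (GRCh38.p14): APOA2, APOA4, APOE, FABP1, FABP2 and MTTP. The 3 printed below are that of the member that passed, that of MTTP, the transfer protein on which assembly depends, and that of FABP1, whose probe was not detected on 11 of 12 arrays. Capitals mark matches on either strand to 8 short motifs. Nuclear receptors bind sites built on AGGTCA, and the variant with G as its opening letter, GGGTCA, was searched as well. CAAAGTCCA is a site of HNF4, a nuclear receptor of gut and liver, and its inner letters, AAAGTCCA, were searched on their own, so that each match to the longer motif is also one to the shorter. The other motifs were the TATA box, searched as TATAAA, the site of GATA factors, searched as AGATAA, and part of the site of the liver and gut factor HNF1, searched as GTTAAT, together with the CCAAT box. The G-first variant and the inner HNF4 letters were added after the APOA4 sequence had been read. The sequences run 5′ to 3′ on the gene's strand.
APOA4, chr11:116823255-116823554, minus strand: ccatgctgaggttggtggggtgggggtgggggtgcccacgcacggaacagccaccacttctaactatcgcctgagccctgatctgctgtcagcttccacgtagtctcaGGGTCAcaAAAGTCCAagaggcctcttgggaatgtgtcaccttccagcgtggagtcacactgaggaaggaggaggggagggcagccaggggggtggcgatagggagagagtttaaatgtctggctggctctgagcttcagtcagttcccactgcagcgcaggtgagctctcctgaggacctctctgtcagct
MTTP, chr4:99574574-99574873, plus strand: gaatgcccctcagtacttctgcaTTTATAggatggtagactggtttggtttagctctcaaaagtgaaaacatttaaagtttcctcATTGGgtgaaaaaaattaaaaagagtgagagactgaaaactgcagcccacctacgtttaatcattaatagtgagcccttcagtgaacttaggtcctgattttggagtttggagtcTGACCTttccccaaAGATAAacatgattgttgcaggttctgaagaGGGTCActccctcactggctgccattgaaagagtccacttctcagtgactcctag
FABP1, chr2:88128013-88128312, minus strand: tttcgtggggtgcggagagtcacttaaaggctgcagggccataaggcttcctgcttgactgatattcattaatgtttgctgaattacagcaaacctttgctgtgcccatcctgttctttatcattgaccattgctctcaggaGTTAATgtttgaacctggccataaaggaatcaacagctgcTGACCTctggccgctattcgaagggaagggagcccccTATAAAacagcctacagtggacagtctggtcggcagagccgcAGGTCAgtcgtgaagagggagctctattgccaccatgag
In the APOA4 window the G-first nuclear receptor motif begins at position -142 from the annotated start and the inner HNF4 motif at -134. The inner HNF4 motif occurs in 1.14% and the G-first motif in 14.1% of the 35116 promoters in the table. Both were added after the APOA4 sequence had been read, so their matches there were known in advance and these shares cannot weigh them. None of the motifs chosen before that reading has a match in the APOA4 window. The full HNF4 motif is held by 0.384% of promoters and the CCAAT box by 34.6%. The MTTP window, the second of a pair of annotated starts, holds 5 matches, with a nuclear receptor motif on the opposite strand at position -50 and the GATA motif at -36. The other MTTP window holds no match. FABP1 holds 4, the nuclear receptor motif once on each strand, the TATA box at position -31 and the HNF1 motif at -108. Of all promoters 13.8% hold the A-first nuclear receptor motif, 11.5% the TATA box, 10.3% the GATA motif and 6.88% the HNF1 motif.

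Genes of the hypoxia response differed between the siRNA and plasmid arrays, and their association with APOA4 or APOC3 was not tested. The score of this list is the mean centred log2 level of its 19 tested genes. It was 0.03 and 1.13 on the KD1 arrays, 0.66 and 1.36 on the KD2 arrays and 1.04 and 0.90 on the siRNA control arrays, and between -0.95 and -0.71 on all 6 plasmid arrays. In siRNA controls over OE controls 15 of the 19 passed, all higher, at a median log2 fold change of +1.64 against -0.01 over all probes tested. Each gene was counted by its probe of highest mean level. Other probes of BNIP3L and PGK1 passed as well. Those of PFKFB3 (+1.04, limma adjusted p = 0.097), P4HA1 (+1.00, adjusted p = 0.0842) and ANGPTL4 (+0.20, adjusted p = 0.728) did not. With the score as a covariate the APOA4 difference between these controls was 0.35 (adjusted p = 0.976), that of APOC3 -0.33 (adjusted p = 0.956), and no probe of the array passed. The score and the experiment run together here and cannot be told apart. With KD1 against siRNA controls the covariate left APOA4 at -1.59 (adjusted p = 0.235) and APOC3 at -0.78 (adjusted p = 0.386). KD1 array 1 had a score of 0.03 and an APOA4 level of 5.84, and KD1 array 2 had 1.13 and 7.21. The siRNA control arrays had 1.04 and 8.49, and 0.90 and 8.52. The cause of the KD1 difference was not tested. The summed hepatocyte markers were 23088 to 25997 with KD1, 30572 to 31800 with KD2 and 27353 to 29991 in siRNA controls, and 30424 to 38479 on the plasmid arrays. The summed macrophage markers were 690 to 973 with KD1, 872 to 1308 with KD2, 1544 to 1613 in siRNA controls and 770 to 803 on the plasmid arrays, with MSR1 and C1QB detected nowhere and CSF1R and CD68 on all 12 arrays. The summed leukocyte markers were 1256 to 1457 with KD1, 1275 to 1364 with KD2, 1801 to 1847 in siRNA controls and 1280 to 1589 on the plasmid arrays, with PTPRC and CD3E detected nowhere. The summed fibroblast markers did not overlap between the experiments, at 2922 to 3538 with KD1, 2715 to 3120 with KD2 and 2897 to 3178 in siRNA controls, and 2155 to 2430 on the plasmid arrays, with 6 of 9 detected on every array and DCN, THY1 and FBN1 on none. Of the 6 tested fibroblast markers COL1A2 and PDGFRB rose in siRNA controls over OE controls (log2 fold changes of 0.86 and 0.92, limma adjusted p = 0.0318 and 0.0433). In that comparison 3 of the 6 stood above 0 and 3 below, at a median log2 fold change of 0.097. COL3A1 rose with KD2 over siRNA controls (0.99, adjusted p = 0.0216), and PDGFRA was higher with KD1 than with KD2 (0.96, adjusted p = 0.0371). In each of these comparisons too, 3 of the 6 stood above 0 and 3 below. Calls in the other marker lists fell in siRNA controls over OE controls. There 2 of 3 tested macrophage markers and 1 of 4 leukocyte markers passed higher. CD68, which is on both lists, was the leukocyte call and 1 of the macrophage calls. The other CD68 probe did not pass (log2 fold change +0.33, limma adjusted p = 0.239). Lower in that comparison were 1 of 14 tested enterocyte markers and 1 of 8 hepatocyte markers, FGB. The other FGB probe did not pass (log2 fold change -0.74, limma adjusted p = 0.29). The part of these marker lists in the results was not tested.

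**Figure D3:**
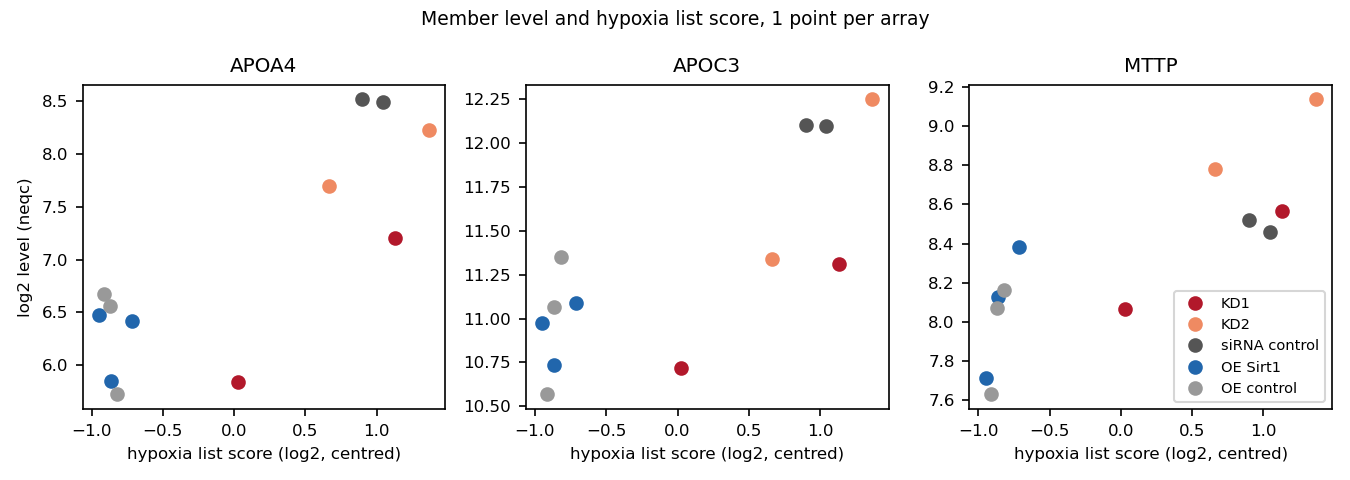
Log2 level of APOA4, APOC3 and MTTP against the score of the hypoxia list, 1 point per array coloured by group. The plasmid arrays form a cluster at scores of -0.95 to -0.71, and KD1 array 1, at 0.03, lies within the range of the plasmid arrays for all 3 genes.

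APOA2, the other major protein of high-density lipoprotein, was 13.25 on both KD1 arrays, 13.35 and 13.48 on the KD2 arrays, and 13.42 and 13.51 on the siRNA control arrays. The KD1 values are equal because the probe had the same rank on both arrays, which quantile normalisation turns into the same level. Its raw intensity there was 11071.9 and 8608.8. The APOA2 level was 13.59, 13.73 and 13.89 on the OE Sirt1 arrays and 13.76, 13.73 and 13.60 on the OE control arrays. The KD1 log2 fold change was -0.21 (SE 0.13, adjusted p = 0.765), and siRNA controls stood at -0.23 against OE controls (SE 0.12, adjusted p = 0.313), which was 0.0092 with median centring. APOE, a ligand of the low-density lipoprotein receptor, was the steadiest member, with all 12 arrays between 12.80 and 13.09. Its log2 fold changes lay between -0.08 and +0.13 over the 5 comparisons. With KD1 its 95% interval was -0.16 to 0.41, and with KD2 -0.17 to 0.41. Like APOA1, APOE and APOA2 are among the brightest probes, their lowest percentiles on any array being 98.8 and 99.2.

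APOB, the frame of chylomicrons and of low-density lipoprotein, was 11.29 and 10.95 with KD1, 11.04 and 11.00 with KD2, and 10.75 and 11.20 in siRNA controls. It was 11.12, 11.19 and 11.35 with OE Sirt1 and 11.59, 11.46 and 11.23 in OE controls. The siRNA controls lay below the OE controls without overlap (log2 fold change -0.44, SE 0.17, unadjusted p = 0.0253 from limma, adjusted p = 0.182). This difference was -0.22 without siRNA control 1 and -0.67 without siRNA control 2, -0.10 with median centring, where the median of all probes is 0.33, and -0.047 with the hypoxia covariate. With KD1 and KD2 the log2 fold change was +0.14 and +0.04 (SE 0.19 each), or -0.072 and -0.26 with median centring, where the median of all probes is -0.21 and -0.31, and the siRNA groups overlapped.

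MTTP was 8.07 and 8.57 with KD1, 8.78 and 9.14 with KD2, and 8.46 and 8.52 in siRNA controls. On the plasmid arrays it was 8.13, 7.71 and 8.38 with OE Sirt1 and 8.16, 8.07 and 7.63 in OE controls. KD2 was above every other array, yet its log2 fold change of +0.47 over siRNA controls did not pass (SE 0.26, 95% interval -0.10 to 1.04, adjusted p = 0.514). KD1 minus KD2 was -0.64 (SE 0.26, adjusted p = 0.408), and siRNA controls over OE controls +0.53 (SE 0.24, adjusted p = 0.239). That last difference passed with median centring, at 0.94 (adjusted p = 0.0428) where the median of all probes is 0.33, and was -0.49 with the hypoxia covariate (adjusted p = 0.915).

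DGAT2 was close to the detection limit. Neither KD1 array detected it (5.23 and 5.16). Of the KD2 arrays 1 of 2 did (6.17, against 5.37 on the other), and both siRNA control arrays did (5.74 and 6.15). All 6 plasmid arrays detected it, at 6.06 to 6.53 with OE Sirt1 and 6.05 to 6.20 in OE controls. With each KD1 array set to the lowest signal at which any probe was detected, the KD1 mean was 1.29-fold below that of siRNA controls. This value leaves out the spread between arrays and is not a lower limit of the difference. The fitted log2 fold change was -0.75 (SE 0.25, interval -1.29 to -0.20). On the authors' normalised values it was -0.22 (adjusted p = 0.569), a smaller difference than 1.29-fold. The adjusted p of this comparison was 0.441 (unadjusted p = 0.0122 from limma), so it did not pass.

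FABP1 was detected on 1 of 12 arrays, siRNA control 2, and FABP2 on none, so neither passed the filter of detection on at least 2 arrays. Raw FABP1 intensity was 106.4 to 144.3 on the KD1 and KD2 arrays, 140.7 and 156.3 on the siRNA control arrays and 103.6 to 142.2 on the plasmid arrays. FABP2 ran from 91.1 to 148.3 over all 12. No fold is given for either.

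**Figure D4:**
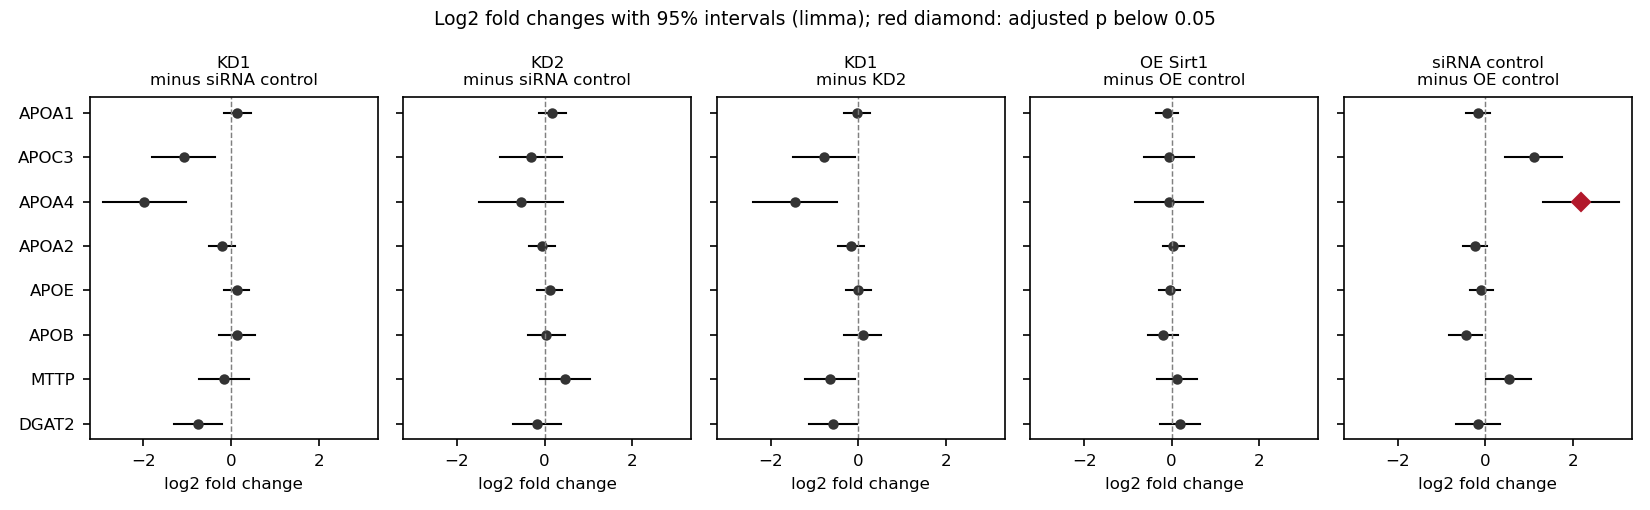
Log2 fold change of the 8 tested genes with its 95% interval in each of the 5 comparisons. The red diamond, APOA4 in siRNA control minus OE control at 2.18, marks the only adjusted p below the threshold.

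The plasmid comparison sets the arrays labelled as SIRT1 overexpression, on which the SIRT1 probe was not higher (log2 fold change -0.0033), against OE control. Of the 8 tested members 0 passed, 0 had an unadjusted p under 0.05, and OE Sirt1 and OE control overlapped for every one of the 8. Of all probes 8.54% did not overlap (4.9% higher and 3.64% lower), 0% passed in limma's test and 3.89%, or 750, had an unadjusted p under 0.05. The members' log2 fold changes ran from -0.20 (APOB) to +0.19 (DGAT2), with a median of -0.05 against 0.01 over all probes. The narrowest 95% intervals were those of APOE, -0.28 to 0.19, and APOA2, -0.20 to 0.28. APOA4, at -0.07, had an interval of -0.85 to 0.71.

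The siRNA comparisons address the effect of less SIRT1. With KD1 0 of the 8 passed in limma's test, against 0.0156% of all probes, and 3 had an unadjusted p under 0.05 (8.03% of all probes), APOA4, APOC3 and DGAT2. The groups did not overlap for 6 of 8 (37.6% of all probes), 4 lower with KD1 (APOA2, APOA4, APOC3 and DGAT2, 18.5% of all probes) and 2 higher (APOA1 and APOE, 19.2%). The median log2 fold change was -0.19, against 0.01 over all probes. With KD2 0 of 8 passed in limma's test (0.301% of all probes, 0.0883% higher and 0.213% lower, or 2 probes higher and 59 lower with median centring), and 0 had an unadjusted p under 0.05 (11.8% of all probes). Of the 8, 4 did not overlap (42.3% of all probes): APOA4 lower (22.4%), and APOA1, APOE and MTTP higher (19.8%). The median log2 fold change was -0.01, as over all probes. For KD1 minus KD2 0 of 8 passed in limma's test (0.296% of all probes, 0.213% higher and 0.0831% lower, a balance that turned with the hypoxia covariate to 7 probes higher and 12 lower), and 4, APOA4, APOC3, MTTP and DGAT2, had an unadjusted p under 0.05 (10.7% of all probes). In that comparison 5 of 8 did not overlap, all lower with KD1 (35.9% of all probes did not overlap, 19.1% higher and 16.8% lower), and the median log2 fold change was -0.37 against 0.01. For siRNA controls over OE controls 4 of 8 had an unadjusted p under 0.05 (20.1% of all probes), APOA4, APOC3 and MTTP higher and APOB lower. These 4 and APOA2, which was lower, did not overlap (41.1% of all probes, 20.3% higher and 20.8% lower).

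Other genes of the pathway were read from fixed lists. Of 17 other apolipoproteins 8 were tested and 0 passed in any comparison. APOH, a phospholipid-binding plasma protein, stood at +0.51 with KD2 (SE 0.15, adjusted p = 0.209), and APOC1, which lies beside APOE, at +0.57 in OE Sirt1 over OE control (SE 0.18, adjusted p = 0.978). Of the 18 tested genes of triglyceride resynthesis and lipid droplets 0 passed with KD1, KD2 or the plasmid. Their median log2 fold change was -0.37 with KD1 and -0.15 with KD2, against 0.01 and -0.01 over all probes, with 13 and 12 of the 18 below 0.

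Nearest to a call among them was ACSL5, which activates fatty acids, at -0.70 with KD1 (SE 0.13, adjusted p = 0.119) and -0.75 with KD2 (SE 0.13, adjusted p = 0.0514). With 1 probe per gene its adjusted p was 0.0701 for KD1 and 0.0304 for KD2. The alternatives ran from 0.0133 to 0.696 for KD1 and from 0.00407 to 0.355 for KD2. CIDEC, a lipid droplet fusion protein, stood at -0.88 with both (SE 0.24, adjusted p = 0.347 with KD1 and 0.194 with KD2). In siRNA controls over OE controls 1 of the 18 passed, the droplet coat protein PLIN2, at +1.09 (SE 0.24, adjusted p = 0.0443). Its other probe stood at +0.95 (adjusted p = 0.154), and the call was lost without any 1 of the 5 control arrays (adjusted p 0.0953 to 0.238).

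None of the 10 tested genes of chylomicron assembly and transport passed in limma's test (0 in each comparison). SAR1B, the GTPase of the vesicles that carry chylomicrons, stood at +0.27 with KD2 (SE 0.13, adjusted p = 0.454) and at -0.31 for KD1 minus KD2 (adjusted p = 0.431). TM6SF2, which takes part in lipoprotein lipidation, stood at +1.03 in siRNA controls over OE controls (SE 0.24, adjusted p = 0.0552). Of the 14 tested genes of lipid and sterol uptake 0 passed. The lipoprotein receptor SCARB1 stood at -0.46 with KD1 (SE 0.13, adjusted p = 0.382) and -0.51 with KD2 (SE 0.13, adjusted p = 0.173), and the retinol-binding RBP2 at -0.59 with KD1 (adjusted p = 0.454).

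Of 23 tested transcriptional regulators 0 passed with KD1, KD2 or the plasmid. NR5A2, a nuclear receptor of gut and liver, stood at -0.74 with KD1 (SE 0.20, adjusted p = 0.359), and KLF4, an epithelial differentiation factor, at -0.67 (SE 0.22, adjusted p = 0.428). KLF4 passed in siRNA controls over OE controls at +0.98 (SE 0.20, adjusted p = 0.0345), its other probe standing at +0.74 (adjusted p = 0.139). This call too was lost without any 1 of the 5 control arrays (adjusted p 0.0642 to 0.25).

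Among the 6 members detected on all 12 arrays the SD over the arrays was 0.57 for APOC3, 0.43 for MTTP, 0.23 for APOB, 0.21 for APOA2, 0.11 for APOA1 and 0.09 for APOE (log2). Profiles were compared with those of 9030 other genes by the root mean square difference of centred log2 levels over the 12 arrays, which share the split between experiments. Nearest to APOC3 were GSN (0.21), EEF1A2 (0.21) and AIF1 (0.22), with MTTP, at 0.35, the nearest member. Nearest to MTTP were PGM2 (0.14), ERCC5 (0.16) and KDELR3 (0.17), and nearest to APOB CDC123 (0.10), SLC25A39 (0.12) and CSNK1G1 (0.12). EEF1A2, for example, was 8.75 and 9.73 with KD1, 9.40 and 10.14 with KD2 and 10.26 on both siRNA control arrays.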

How the data were processed

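Caco-2 RNA was measured on 12 arrays in 5 groups. Per the submitters' processing notes, GenomeStudio 2010.1 was used. The authors deposited raw probe intensity for 47323 probes, each with a detection p-value, subtracted from 1 in the file (its rank correlation with intensity is at least 0.9845), and normalised log2 values whose method is not given in the sources used here. A second table holds 47231 of these probes, identical to the normalised table, and none of the other 92 was detected.

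The neqc function corrected raw intensities for background, by way of the detection p-values, and quantile-normalised them (limma 3.58.1, R 4.3.3, offset 16). The tests ran on the 19263 probes that at least 2 arrays detected (detection p under 0.01). Symbols came from the platform annotation, and a RefSeq table changed 0 of them. A single limma fit over the 12 arrays had 1 mean for each group (7 residual and 3.54 prior degrees of freedom), tests were two-sided, and p-values were adjusted over all probes by Benjamini and Hochberg at 0.05. Each probe's variance is shared by all groups, so an SE also reflects the other groups' arrays. The number of arrays limits the precision: the median SE was 0.19 for each siRNA and 0.16 for the plasmid. Members, lists and alternatives were chosen with earlier results of these data known. All members were reported; of each list, genes past the threshold or with the smallest p were named. The neighbours of the APOA1 cluster were chosen after values were seen. The fit was tested on simulated data. No genome build is named in the files.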

Additional observations from a re-analysis of the deposited data

How the results depend on the processing

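For the 8 tested members, 526 values were recomputed over 40 pairs of member and comparison. Direction and side of the threshold were kept in 471, 41 changed direction, 7 passed that had not, and 7 no longer passed. APOA4 in siRNA control over OE control was 2.18 without a detection filter (adjusted p = 0.0567), 0.35 with the hypoxia covariate (0.976) and 1.89 to 2.36 without 1 array.

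The count of called probes depended on the processing. With KD1 it was 3 as reported, 62 on the authors' values, 15 with median centring, 0 without a filter, 45 among probes detected on all arrays, 20 with 1 probe per gene, 64 with trend and robust fitting, 0 on the siRNA arrays alone and 0 to 0 without 1 array. With KD2 it was 58 (17 higher, 41 lower), 210 on the authors' values, 61 with median centring (2 higher, 59 lower), 149 among probes detected on all arrays, 199 with trend and robust fitting, 94 with the hypoxia covariate, 0 on the siRNA arrays alone and 0 to 27 without 1 array. For KD1 minus KD2 it was 57 (41 higher, 16 lower), 166 on the authors' values (102 higher, 64 lower), 0 with median centring, 7 without a filter, 147 among probes detected on all arrays, 152 with trend and robust fitting, 19 with the hypoxia covariate (7 higher, 12 lower), 0 on the siRNA arrays alone and 0 to 21 without 1 array. For siRNA control over OE control it was 473 (364 higher, 109 lower), 1217 on the authors' values (771 higher, 446 lower), 1536 with median centring (1528 higher, 8 lower), 117 without a filter, 775 among probes detected on all arrays (465 higher, 310 lower), 1157 with trend and robust fitting (746 higher, 411 lower), 0 with the hypoxia covariate and 0 to 40 without 1 array. For the plasmid it was 0 in each. With the replicate number as a block the counts were 0 for KD1, 1 for KD2, 0 for KD1 minus KD2 and 140 for the controls. The numbers were not taken to pair the samples. Deviations of same-numbered plasmid arrays from their group means gave r = -0.146, -0.112 and 0.0478 across probes. KD1 and siRNA control arrays gave 0.00772, a single value, since in groups of 2 the deviations of both arrays mirror each other. KD2 2 and siRNA control 2, the only shared number there, gave 0.136. No OE Sirt1 array was nearest to the OE control of its number. The blocked fit changed no call of a member, but PLIN2 (adjusted p = 0.0674) and KLF4 (0.066) did not pass in it.

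Median centring moved the median of tested probes to 0.25 for the plasmid, -0.21 with KD1, -0.31 with KD2 and 0.33 for the controls. Under it the plasmid values were 0.12 for APOA4, 0.041 for APOB, 0.19 for APOC3 and 0.15 for APOE, all below that shift. APOB was -0.072 with KD1 and -0.26 with KD2, and APOE -0.042 with KD2. Between the controls APOA1 was 0.012, APOA2 0.0092, APOE 0.19 and DGAT2 0.16. With the hypoxia covariate MTTP was 0.047 with KD1 and APOE -0.027 for KD1 minus KD2, and between the controls APOC3 was -0.33, APOE 0.061, MTTP -0.49 and PLIN2 -0.38. With the replicate block APOE was -0.084 for KD1 minus KD2.
Without 1 array, the members whose direction changed ran as follows. For the plasmid the ranges were APOA2 -0.037 to 0.11, APOA4 -0.37 to 0.13, APOC3 -0.28 to 0.12, APOE -0.11 to 0.022, MTTP -0.043 to 0.30. With KD1 the ranges were APOB -0.080 to 0.37, MTTP -0.42 to 0.080. With KD2 the ranges were APOA2 -0.12 to 0.013, APOB -0.18 to 0.27, APOC3 -0.76 to 0.15, DGAT2 -0.57 to 0.23. For KD1 minus KD2 the ranges were APOA1 -0.068 to 0.0050, APOB -0.064 to 0.27, APOE -0.025 to 0.040. Between the controls the ranges were DGAT2 -0.37 to 0.038.
Probes near the detection limit (APOA4 on plasmid arrays and on KD1 array 1, DGAT2, FABP1) have the least certain levels. The groups of 2 share a variance with the other groups, and a lone array is assumed to vary like them. The APOA4 difference between the controls was 1.23 on the authors' values, against 2.18 as reported. The cause of these differences was not tested.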
